A study of Mus musculus with 6 samples.

Results

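The 10 genes described here encode proteins that neutrophils make and store as they mature, and they were read in RNA sequencing of bone marrow-derived macrophages (BMDMs). They were chosen by symbol from the 40481 genes of the count table, with earlier results of these data known. They fall into classes by the stage of granulocyte maturation at which they are known to be made. The primary (azurophil) granule class holds *Elane*, *Mpo*, *Prtn3* and *Ctsg*. The later class holds *Ngp*, *Camp*, *Ltf* and *Lcn2*, whose products go to specific granules, and *S100a8* and *S100a9* encode the cytosolic protein pair calprotectin. All 10 genes had counts, and 9 of them passed edgeR's filter on low counts, which *Ctsg* did not.

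The libraries came from 3 wild-type and 3 *Scd2*-m/-m samples of unstimulated BMDMs, with 1 poly(A)-selected library each. The *Scd2*-m/-m mice carried floxed *Scd2* alleles and a lysozyme M-Cre transgene, which is known to be active in macrophages and also in neutrophils and their late precursors, and the labels give the controls only as WT. All 6 samples were marrow cells of adult mice of either sex (the age and sex of single samples are not given), grown for 5 to 6 days with 10% CMG-conditioned medium, a source of the macrophage growth factor M-CSF, and then kept with 2%. The labels do not say whether the replicates were separate mice, so the p-values measure the spread between these samples, which may be technical in part.

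Neutrophils are built in the marrow along a fixed order of stages. Promyelocytes make the primary granule proteins, myelocytes and metamyelocytes then make the specific granule proteins, and gelatinase granule proteins and surface receptors of the mature cell come last. The serine proteases and the peroxidase of primary granules are also made by common granulocyte and monocyte progenitors and decline as either lineage matures. In that order, transcription factors of the C/EBP family, PU.1, RUNX1 and MYB are known to act on these genes. *Lcn2*, *S100a8* and *S100a9* can also be expressed by macrophages, mainly on stimulation.

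The promoter sequences of the 10 genes were searched for letters that such factors are known to bind, and those shown here are the matches that separated the classes. They are RefSeq windows of build GRCm38.p6 that run from 250 bases before to 50 bases after the annotated start, and all 10 genes had one. AGGAAGT, a PU.1 type motif, was present on either strand in 4 of 4 primary granule promoters, in 0 of 4 later granule promoters and in that of *S100a8*, against 9.35% of 32851 promoter windows of all genes. The stretches below show it in capitals, each read on the strand of its gene.
Elane, chr10:79886208-79886254, plus strand: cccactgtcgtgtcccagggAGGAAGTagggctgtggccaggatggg
Mpo, chr11:87793541-87793587, plus strand: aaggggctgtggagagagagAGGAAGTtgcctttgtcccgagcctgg
Prtn3, chr10:79879553-79879599, plus strand: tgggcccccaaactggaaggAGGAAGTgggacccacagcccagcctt
Ctsg, chr14:56102754-56102800, minus strand: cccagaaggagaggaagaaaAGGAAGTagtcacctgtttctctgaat

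Counted from the start, the first base of the motif was at −84 in *Elane*, −94 in *Prtn3*, −206 in *Ctsg* and −223 in *Mpo*. In the GENCODE annotation of GRCm38 the stretch of *Ctsg* lies outside any gene, that of *Prtn3* lies in an intron of a longer *Prtn3* transcript, and those of *Elane* and *Mpo* reach into the first exon by 8 and 7 bases. TTGCNNAA, a C/EBP type motif in which N is any base, was present in 0 of 4 primary granule promoters, in those of *Ngp*, *Ltf* and *Lcn2* among the later class and in that of *S100a9*, against 10.8% of all windows. It is in capitals, in either orientation, in the next stretches, which lie outside any annotated gene.
Ngp, chr9:110419650-110419697, plus strand: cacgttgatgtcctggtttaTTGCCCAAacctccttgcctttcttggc
Ltf, chr9:111019197-111019244, plus strand: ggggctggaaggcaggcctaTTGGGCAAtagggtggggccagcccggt
S100a9, chr3:90695930-90695971, minus strand: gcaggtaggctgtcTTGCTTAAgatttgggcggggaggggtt

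The *Ngp* window held a further match near the start, and the match of *Lcn2* lies in coding sequence of another *Lcn2* transcript and is not shown. The looser C/EBP letters TTNNGNAA, which overlap TTGCNNAA matches, were present in 0 primary, 3 later and both calprotectin promoters, against 40.7% of all windows. The RUNX letters TGTGGT were present in *Ctsg*, *Ltf* and *S100a9* (16.8% of all windows) and the MYB letters AACNGNC in *Elane*, *Mpo*, *Ctsg* and *Ngp* (32.8% of all windows). The *Camp* window held none of the motifs. A match is a run of letters and not a measured binding site.

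**Figure D1:**
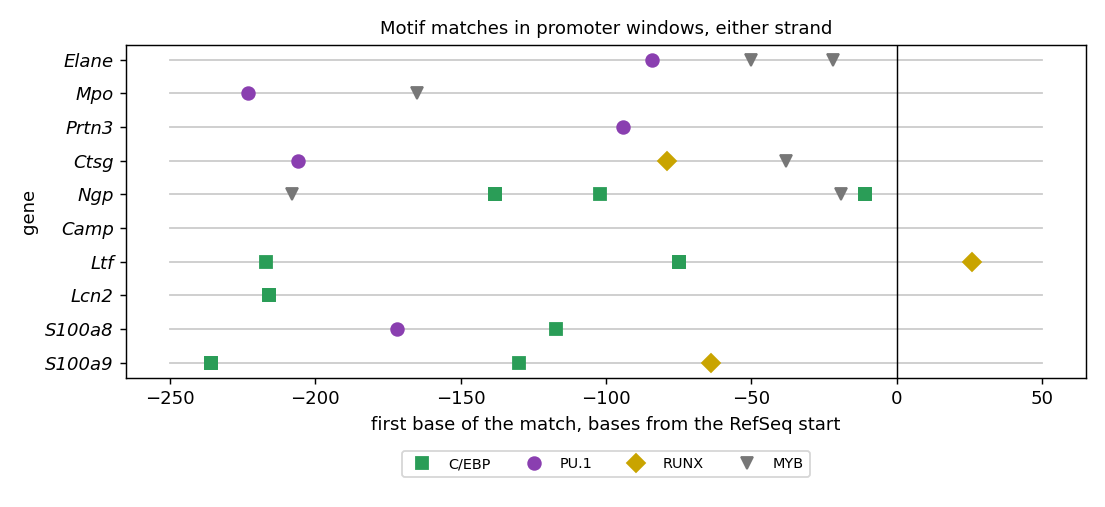
Position of each motif match in the 10 promoter windows, with the distance of its first base from the RefSeq start in bases on the horizontal axis and the genes on the vertical axis; colour and shape give the factor type, and both C/EBP motifs share a symbol. PU.1 type matches lie in the 4 primary granule promoters and *S100a8*, and C/EBP type matches lie in the later and calprotectin promoters other than *Camp*.

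Library totals over all genes were 46285176 to 57629638 counts. The targeted gene, *Scd2*, a fatty acid desaturase, was measured at 66.9, 77.7 and 62.7 CPM (counts scaled to the TMM-adjusted library size) in wild-type and 59.5, 37.9 and 39.8 CPM in *Scd2*-m/-m libraries 1 to 3, a log2 fold change of −0.59 (standard error, SE, 0.19, FDR = 0.1, edgeR), and −0.83 without *Scd2*-m/-m replicate 1 (FDR = 8.83e-05). By quantitative PCR, another measure, the paper reports a larger fall of *Scd2* transcript in *Scd2*-m/-m macrophages than these counts gave. The defining macrophage markers were abundant in all libraries, with 9 of 9 tested. Their summed level was 15900 to 16000 CPM in wild-type and 13200 to 13700 CPM in *Scd2*-m/-m libraries. Of these 9, *Cd68* was higher (log2 fold change 0.22, FDR = 0.0379) and *Adgre1*, *Csf1r* and *Mertk* were lower (−0.49, −0.38 and −0.33, FDR = 0.00427, 0.00158 and 0.00384, edgeR). The edgeR quasi-likelihood test covered 14778 genes, its p-values were adjusted over all of them (Benjamini-Hochberg false discovery rate, FDR), and a gene was called where its FDR was below 0.05.

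The granule genes were low in wild-type BMDMs and higher in *Scd2*-m/-m BMDMs. Their levels added up to 14, 13.4 and 13.8 CPM in wild-type libraries 1 to 3 and 31.6, 36.1 and 40.3 CPM in the *Scd2*-m/-m ones. The genotypes did not overlap, and the mean was 2.62 times as high. Of the 9 genes tested, 7 rose and 0 fell, and *Elane* and *Camp* did not pass the test. Of all genes tested, 9.65% rose and 7.84% fell, and 9.9% rose among the 5352 genes with a wild-type mean below 5 CPM, as all 10 granule genes had. In 8 of the 9 every *Scd2*-m/-m library was above every wild-type library, against 17.9% of all genes tested. A log2 fold change above 1 was fitted for 6 of the 9, against 3.14% of all genes tested and 8.2% of those below 5 CPM. The median log2 fold change was 1.25 over the 9 genes and 0.0039 over all genes tested. As the granule genes were chosen with earlier results of these data known, these comparisons are a description and not a test. The gene *Ctsg* is in the summed levels above but in none of the counts of tested genes or the median. The filter asked for enough counts in at least 3 libraries of either genotype. *Prtn3*, with 0, 12 and 5 wild-type counts, passed it only through *Scd2*-m/-m libraries. *Camp*, with 14, 9 and 12 wild-type counts, also reached 3 libraries only through *Scd2*-m/-m libraries, as wild-type replicate 2 fell short. The counts and the median thus include genes admitted through the genotype where their mean is higher. With at least 10 counts required in every library, *Prtn3* and *Camp* were left out, and 7 of 7 tested genes rose. In bulk RNA, more cells of a type and more RNA of these genes per cell cannot be told apart.

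**Figure D2:**
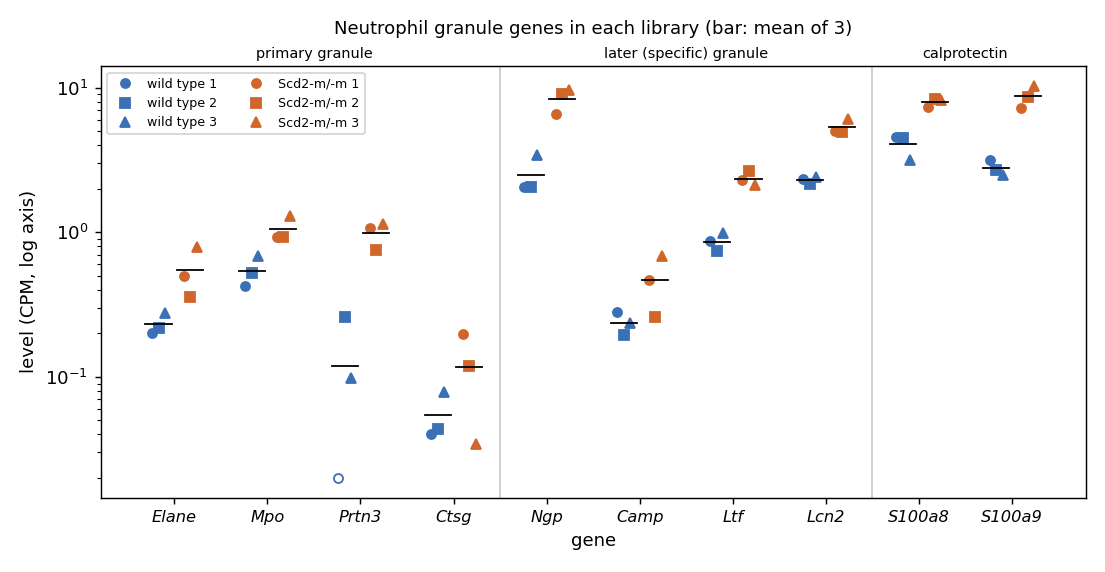
Level of each granule gene in CPM (log axis) in the 6 libraries, with wild type in blue and *Scd2*-m/-m in orange, a symbol per replicate and a bar at the mean of 3; the open symbol is the count of 0 for *Prtn3* in wild-type replicate 1, drawn at the foot of the axis. In 8 of the 10 genes every *Scd2*-m/-m library is above every wild-type library, the exceptions being *Ctsg* and *Camp*.

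Among the primary granule genes, *Prtn3* had the largest difference. It encodes proteinase 3, a neutrophil serine protease (ENSMUSG00000057729, plus strand of chromosome 10, 79874476 to 79883174 in GRCm38, the build of all gene positions given here). It had 0, 12 and 5 counts in wild-type libraries 1 to 3 and 60, 38 and 67 counts in *Scd2*-m/-m libraries 1 to 3, or 0.119 ± 0.131 against 0.994 ± 0.21 CPM (mean ± SD, n = 3 each). The lowest *Scd2*-m/-m library was thus well above the highest wild-type library, and the count of 0 allows a level of up to 0.0604 CPM, counting 3 counts as its limit. The log2 fold change was 3.07 (SE 0.59, 95% interval 1.79 to 4.35, FDR = 0.00324, edgeR). Its size rests on few wild-type counts, and it ranged from 2.48 (without wild-type replicate 1) to 4.26 (without wild-type replicate 2) with a library left out, and stayed called. The gene overlaps the first part of *Plppr3* on the other strand, whose 115 to 133 wild-type and 124 to 169 *Scd2*-m/-m counts gave a log2 fold change of 0.04 (FDR = 0.897, edgeR).

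*Mpo*, which encodes myeloperoxidase, the enzyme that makes hypochlorous acid in neutrophils (ENSMUSG00000009350, plus strand of chromosome 11, 87793581 to 87804413), had 21, 24 and 35 wild-type counts and 52, 47 and 75 *Scd2*-m/-m counts. In CPM the means were 0.544 ± 0.134 and 1.05 ± 0.206 (SD, n = 3 each), and the genotypes did not overlap. The log2 fold change was 0.95 (SE 0.30, 95% interval 0.32 to 1.58, FDR = 0.0394, edgeR). The call of *Mpo* was lost without wild-type replicate 1 (0.80, FDR = 0.109) or 2 (0.92, FDR = 0.115) and without *Scd2*-m/-m replicate 1 (1.03, FDR = 0.0502), 2 (1.03, FDR = 0.0783) or 3 (0.77, FDR = 0.152). The noncoding gene *Gm11505* lies within *Mpo* on the other strand and had 0 counts in every library. The 95% intervals of *Prtn3* and *Mpo* did not overlap, and the difference between their fold changes was not itself tested.

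*Elane* encodes neutrophil elastase, the protease next to *Prtn3* on the same strand of chromosome 10 (ENSMUSG00000020125, 79886247 to 79888215). It had 10, 10 and 14 counts in wild-type and 28, 18 and 46 counts in *Scd2*-m/-m libraries 1 to 3. All 3 *Scd2*-m/-m libraries were above the wild-type libraries, with 0.231 ± 0.039 against 0.55 ± 0.221 CPM (SD, n = 3 each). The log2 fold change of 1.25 (SE 0.41, 95% interval 0.36 to 2.14) had an FDR of 0.0521 (edgeR), just over the threshold, and 0.0488 in a test without the filter on low counts.

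*Ctsg* encodes cathepsin G, another primary granule protease (ENSMUSG00000040314, minus strand of chromosome 14, 56099881 to 56102574). Its counts were 2, 2 and 4 in wild-type and 11, 6 and 2 in *Scd2*-m/-m libraries 1 to 3. The genotypes overlapped, with *Scd2*-m/-m replicate 3, the highest library for *Elane*, *Mpo* and *Prtn3*, the lowest in CPM. The means were 0.0541 ± 0.0213 and 0.117 ± 0.0813 CPM (SD, n = 3 each; exact permutation test, two-sided, p = 0.4, where 3 libraries against 3 allow no p under 0.1). Tested without a filter, it had a log2 fold change of 1.07 with a 95% interval of −0.95 to 3.08 (FDR = 0.598, edgeR), so that no difference was detectable at this depth.

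In the later class, *Ngp* had the highest mean level in either genotype, although *Lcn2* was above it in wild-type libraries 1 and 2. *Ngp* encodes neutrophilic granule protein, a relative of the cathelicidins and cystatins (ENSMUSG00000032484, plus strand of chromosome 9, 110419747 to 110423012). Its level was 2.05, 2.06 and 3.42 CPM in wild-type and 6.54, 9.03 and 9.68 CPM in *Scd2*-m/-m libraries 1 to 3. The lowest *Scd2*-m/-m library was above all wild-type libraries, and the log2 fold change was 1.74 (SE 0.21, FDR = 0.000205, edgeR).

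*Ltf* encodes lactotransferrin, the iron-binding protein that marks specific granules (ENSMUSG00000032496, plus strand of chromosome 9, 111019271 to 111042767). It rose from 0.866, 0.737 and 0.983 CPM to 2.29, 2.64 and 2.13 CPM. Its log2 fold change was 1.44 (SE 0.21, FDR = 0.000313, edgeR), and its libraries did not overlap between the genotypes. *Lcn2* encodes lipocalin 2, which binds bacterial siderophores (ENSMUSG00000026822, minus strand of chromosome 2, 32384633 to 32388252), and rose from 2.34, 2.17 and 2.4 CPM to 5.03, 4.93 and 6.11 CPM. The wild-type libraries lay close together, and the log2 fold change was 1.22 (SE 0.15, FDR = 6.53e-05, edgeR).

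*Camp* encodes the mouse cathelicidin, an antimicrobial peptide of specific granules (ENSMUSG00000038357, minus strand of chromosome 9, 109847379 to 109849617). It had 14, 9 and 12 counts in wild-type and 26, 13 and 40 counts in *Scd2*-m/-m libraries 1 to 3, so that *Scd2*-m/-m replicate 2 fell within the wild-type range. The log2 fold change of 0.99 (SE 0.44, 95% interval 0.05 to 1.93) did not pass the test (FDR = 0.146, edgeR).

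*S100a8* and *S100a9* encode the subunits of calprotectin, a calcium- and zinc-binding complex that is abundant in the cytosol of neutrophils and monocytes. *S100a8* (ENSMUSG00000056054, plus strand of chromosome 3, 90668978 to 90670035) was at 4.59, 4.46 and 3.17 CPM in wild-type and 7.38, 8.35 and 8.19 CPM in *Scd2*-m/-m libraries 1 to 3, a log2 fold change of 0.97 (SE 0.14, FDR = 0.000351, edgeR). *S100a9* (ENSMUSG00000056071, minus strand of chromosome 3, 90692632 to 90695721) was at 3.18, 2.71 and 2.48 CPM against 7.24, 8.69 and 10.3 CPM, and its log2 fold change was 1.65 (SE 0.15, FDR = 6.69e-06, edgeR). Neither gene overlapped between the genotypes. The 95% interval was 0.66 to 1.28 for *S100a8* and 1.32 to 1.97 for *S100a9*, so these intervals did not overlap, and the difference between the genes was not itself tested.

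**Figure D3:**
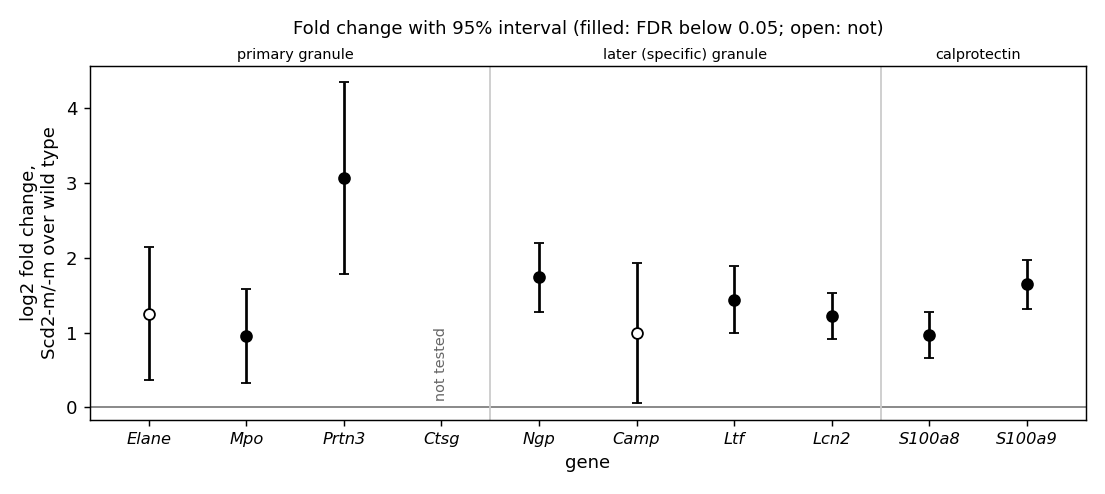
Log2 fold change of each granule gene (*Scd2*-m/-m over wild type, vertical axis) with its 95% interval from edgeR; filled points had an FDR below 0.05, and *Ctsg* was not tested. All 9 intervals lie above 0, with *Prtn3* highest at 3.07 and *Mpo* lowest at 0.95.

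The primary granule genes were next compared with the later ones. Their summed level was 0.665, 1.04 and 1.14 CPM in wild-type and 2.7, 2.17 and 3.27 CPM in *Scd2*-m/-m libraries 1 to 3. The later granule genes summed to 5.54, 5.16 and 7.04 CPM in wild-type and 14.3, 16.9 and 18.6 CPM in *Scd2*-m/-m libraries. Calprotectin genes summed to 7.77, 7.17 and 5.64 CPM against 14.6, 17 and 18.5 CPM. Each class was higher in every *Scd2*-m/-m library than in any wild-type library, by 2.86 times for the primary, 2.81 times for the later and 2.43 times for the calprotectin genes.

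The balance between the stages did not separate the genotypes. The primary sum was 12%, 20.2% and 16.2% of the later sum in wild-type libraries 1 to 3 and 18.9%, 12.9% and 17.6% of it in the *Scd2*-m/-m ones, or 16.1% ± 4.08 against 16.4% ± 3.17 (SD, n = 3 each). The median log2 fold change was 1.25 over the 3 primary genes tested, 1.33 over the 4 later genes and 1.31 over the 2 calprotectin genes. Several genes carried these percentages. On average *Mpo* led the primary sum in wild type (0.544 CPM) and was near *Prtn3* in *Scd2*-m/-m libraries (1.05 and 0.994 CPM). In the later sum *Ngp* and *Lcn2* were at 2.51 and 2.3 CPM in wild type and at 8.42 and 5.36 CPM in *Scd2*-m/-m libraries. On the log2 scale the ratio of primary to later sums differed by 0.04 between the genotypes (*Scd2*-m/-m minus wild type; SDs of 0.38 for wild-type libraries and 0.29 for *Scd2*-m/-m libraries), and by 0.82 when *Mpo* and *Ngp* were left out, where *Prtn3* had most of the counts left in the primary sum of *Scd2*-m/-m libraries.

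**Figure D4:**
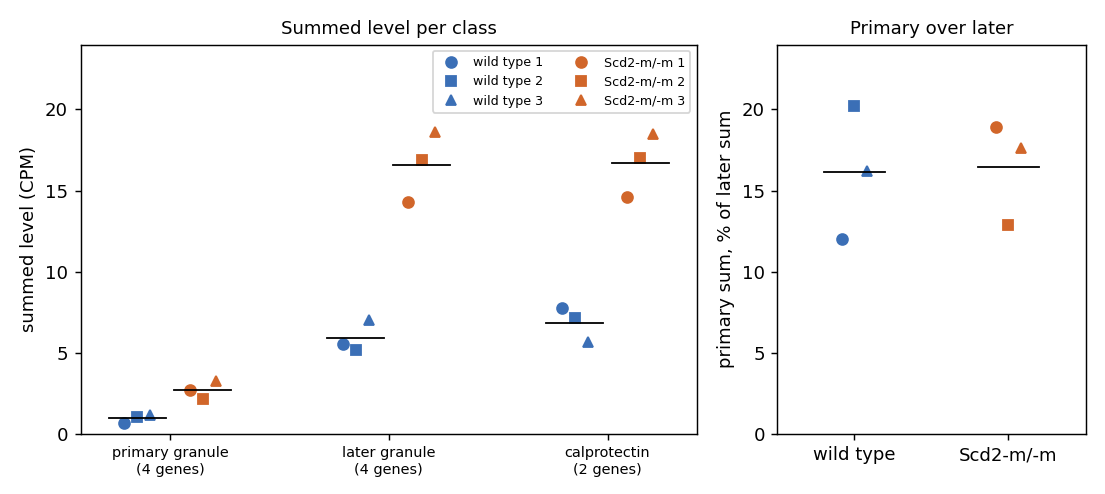
Left, summed level in CPM of the 4 primary granule, 4 later granule and 2 calprotectin genes in each library (symbols, wild type in blue and *Scd2*-m/-m in orange) with the mean of 3 as a bar; right, the primary sum as a percentage of the later sum. Every class sum separates the genotypes, and the percentages overlap, from 12% to 20.2% (wild type) and from 12.9% to 18.9% (*Scd2*-m/-m).

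Per length, in CPM per kilobase of exon, the calprotectin genes had the highest level of the 10 genes in either genotype. In wild-type BMDMs *S100a8* was at 5.87 ± 1.14 and *S100a9* at 5.34 ± 0.687 CPM per kilobase (SD, n = 3 each), ranges that overlapped, followed by *Ngp* at 2.06 ± 0.645 and *Lcn2* at 0.877 ± 0.0457. Below these, *Camp* (0.314 ± 0.0573), *Ltf* (0.25 ± 0.0357), *Elane* (0.235 ± 0.0397), *Mpo* (0.159 ± 0.0392), *Prtn3* (0.069 ± 0.0758) and *Ctsg* (0.0524 ± 0.0207) each overlapped the next in the order within 1 SD. In wild type the primary granule genes thus had the lowest means per length, though *Elane* overlapped *Ltf* within 1 SD. In *Scd2*-m/-m BMDMs *S100a9* (16.7 ± 2.92) was above *S100a8* (11.5 ± 0.75), *Ngp* was at 6.89 ± 1.36 and *Lcn2* at 2.04 ± 0.248. *Ltf* (0.683 ± 0.076), *Camp* (0.621 ± 0.283), *Prtn3* (0.574 ± 0.121) and *Elane* (0.559 ± 0.224) overlapped there, and *Mpo* was at 0.307 ± 0.0602 and *Ctsg* at 0.113 ± 0.0787 CPM per kilobase. Among the tested genes, *S100a9* moved from the 58.4th to the 81.7th percentile of level per length and *Prtn3* from the 3.55th to the 20.6th.

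Other genes of the granulocyte programme did not all follow. Of 63 further genes in lists by stage and role, 37 were tested, of which 12 rose and 11 fell, with a median log2 fold change of 0.08. Of all genes tested, 9.65% rose and 7.84% fell, so calls in both directions were more frequent in these lists. The same shares apply to the count of each list below. Many of these genes are also expressed by macrophages, and 29 of the 63 had over 1 CPM on average in wild-type libraries, a level that 0 of the 4 primary granule genes had.

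In the list of other azurophil and promyelocyte genes, 2 of 7 tested genes rose and 3 fell. *Cst7*, which encodes cystatin F, an inhibitor of the proteases that mature granule enzymes, rose from 0.437 ± 0.0849 to 1.2 ± 0.139 CPM (SD, n = 3 each; log2 fold change 1.45, FDR = 0.00268, edgeR). *Srgn*, whose product serglycin packs proteases into granules, rose from 56.8 ± 5.73 to 99.6 ± 4.55 CPM, and its log2 fold change was 0.81 (FDR = 5.98e-06, edgeR). *Ctsc*, which encodes the cathepsin that activates elastase, proteinase 3 and cathepsin G, fell from 580 ± 12.3 to 477 ± 49 CPM (log2 fold change −0.28, FDR = 0.0163, edgeR). The lysozyme genes *Lyz2* and *Lyz1* fell by 1.33 and 1.23 on the log2 scale, *Lyz2* from 22700 ± 584 to 9030 ± 357 CPM; lysozyme M-Cre is known to be inserted in *Lyz2*, and these paralogs can share reads. *Ms4a3*, a gene of granulocyte and monocyte progenitors, had 0 counts in every wild-type library and 6, 0 and 3 counts in *Scd2*-m/-m libraries 1 to 3, and *Prss57*, a primary granule protease gene, had 0, 4 and 2 against 0, 3 and 2 counts. Neither was tested.

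In the list of other specific granule and myelocyte genes, 4 of 7 tested genes rose and 2 fell. *Chil3*, which encodes a chitinase-like lectin of myelocytes and macrophages, rose from 1.46 ± 0.249 to 5.08 ± 0.4 CPM, and its log2 fold change was 1.79 (FDR = 6.69e-06, edgeR). *Cd177*, a neutrophil surface protein, rose by 1.58 on the log2 scale (FDR = 0.0135), *Hp*, which encodes haptoglobin, by 0.86 (FDR = 0.00356) and *Anxa1*, which encodes annexin A1, by 0.49 (FDR = 0.000262). These 4 genes had the direction of the granule genes. Of them *Cd177*, with 9, 16 and 18 wild-type counts, reached the 3 libraries of the filter only through *Scd2*-m/-m libraries. *Slpi*, an inhibitor of elastase, fell from 6.14 ± 1.63 to 2.96 ± 0.197 CPM (log2 fold change −1.05, FDR = 0.000906), and *Cybb*, a subunit of the NADPH oxidase of all phagocytes, had a log2 fold change of −0.30 (FDR = 0.0159). *Fcnb*, a ficolin of immature granulocytes that the filter left out, had 5, 0 and 0 counts in wild-type and 7, 10 and 12 counts in *Scd2*-m/-m libraries 1 to 3.

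In the list of gelatinase granule and late neutrophil genes, 16 genes were listed and 7 tested, of which 2 rose and 2 fell. The 4 calls became 2 without wild-type replicate 2 or without *Scd2*-m/-m replicate 2, and 6 without wild-type replicate 1. *Padi4*, which encodes an enzyme that citrullinates histones, rose from 12.1 ± 1.65 to 15.3 ± 1.16 CPM (log2 fold change 0.34, FDR = 0.0398, edgeR). *Mmp9*, which encodes gelatinase B and is expressed by macrophages too, fell from 51.4 ± 9.17 to 16.7 ± 0.857 CPM (log2 fold change −1.62, FDR = 7.08e-06), and the G-CSF receptor gene *Csf3r* from 164 ± 6.15 to 135 ± 12 CPM (log2 fold change −0.28, FDR = 0.0105). *Mmp8*, neutrophil collagenase, was at 12.5 ± 1.65 against 10.1 ± 1.87 CPM and was not called (FDR = 0.146, edgeR). Other genes of the mature neutrophil in the list had few counts. *Ly6g*, the surface marker of mouse neutrophils, had 0 counts in every wild-type library and 2, 0 and 2 counts in *Scd2*-m/-m libraries 1 to 3. *Cxcr2*, the chemokine receptor of mature neutrophils, had 8, 4 and 13 against 10, 17 and 11 counts. *Retnlg* had 6, 0 and 2 against 12, 6 and 14 counts. *Pglyrp1* had 13, 4 and 3 against 16, 14 and 38 counts and was not called (log2 fold change 1.57, FDR = 0.0798, edgeR). Among genes not tested, *Stfa2l1* had 0, 0 and 2 against 9, 4 and 6 counts and *G0s2* 2, 0 and 2 against 8, 4 and 12. *Stfa2* had 0, 0 and 0 against 2, 2 and 0 counts and *Il1r2* 6, 0 and 10 against 4, 2 and 8. Of the list, *Stfa1* and *Stfa3* had 0 counts in every library.

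Transcription factors of granulocyte development were mostly lower or not called, with 1 of 9 tested genes higher and 4 lower. *Cebpa* fell from 164 ± 9.44 to 113 ± 7.48 CPM (log2 fold change −0.54, FDR = 8.77e-05, edgeR), *Cebpb* from 193 ± 16 to 143 ± 8.73 CPM, *Cebpd* from 116 ± 2.37 to 75.1 ± 2.84 CPM, and *Spi1*, which encodes PU.1, from 758 ± 50.7 to 647 ± 26 CPM. *Klf4*, a factor of the monocyte lineage, rose from 16.7 ± 1.61 to 22.6 ± 0.591 CPM (log2 fold change 0.44, FDR = 0.00206). *Cebpe*, the factor of specific granule genes, had 21, 6 and 12 counts in wild-type and 41, 24 and 26 counts in *Scd2*-m/-m libraries 1 to 3. It was above all wild-type libraries in each *Scd2*-m/-m library but not called (log2 fold change 1.06, 95% interval 0.12 to 2.00, FDR = 0.119, edgeR). *Gfi1*, a repressor needed for granulocytes, had 4, 5 and 1 against 8, 4 and 0 counts.

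Among genes for the activation and inhibition of granule proteases, 4 of 9 tested genes rose and 2 fell, and *Srgn*, *Ctsc* and *Slpi* of this list are described above. *Serpinb6b* rose from 2.1 ± 0.829 to 5.61 ± 0.443 CPM (log2 fold change 1.41, FDR = 0.0006, edgeR) and *Serpinb6a* by 0.42 (FDR = 0.00054), both of which encode intracellular serpins, and *Cstb*, which encodes cystatin B, by 0.24 (FDR = 0.0215). *Serpinb1a*, an inhibitor of neutrophil elastase and proteinase 3, had 7, 4 and 6 against 25, 14 and 14 counts and was not called (FDR = 0.059, edgeR). Of 10 relatives of the granule proteases and peroxidase, only *Prss34* passed the filter, and 0 were called by edgeR or DESeq2 (0 at an unadjusted p under 0.05). The eosinophil peroxidase gene *Epx* had 0, 0 and 2 against 2, 0 and 2 counts, and *Cfd*, the gene beyond *Elane* on chromosome 10, had 5, 0 and 2 against 4, 0 and 2 counts.

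**Figure D5:**
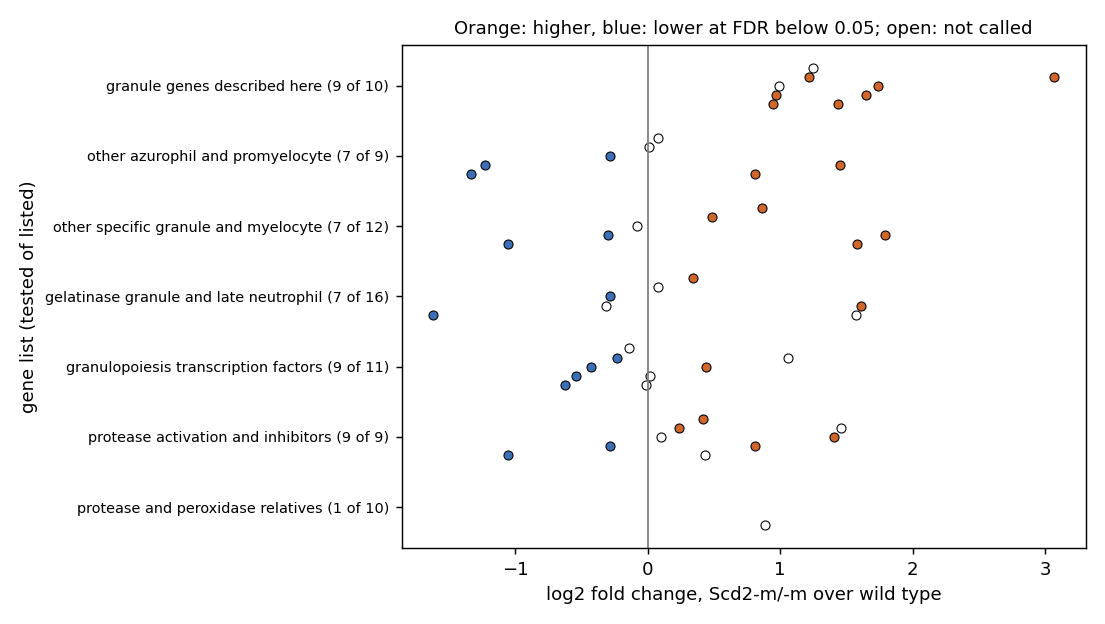
Log2 fold change (*Scd2*-m/-m over wild type, horizontal axis) of the tested genes of each list, with orange for genes higher and blue for genes lower at an FDR below 0.05 and open symbols for genes not called; *Ctsc*, *Srgn* and *Slpi* stand in 2 lists. All 9 tested granule genes lie above 0, and the other lists with more than 1 tested gene hold values on either side of 0.

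Markers of other cells and of cell division moved in the same comparison, in which 9.65% of all genes tested rose and 7.84% fell. Beyond the granule genes, the neutrophil markers *Ly6g*, *Cxcr2*, *Csf3r*, *Retnlg* and *Mmp8* summed to 172 to 181 CPM in wild-type and 135 to 160 CPM in *Scd2*-m/-m libraries, nearly all of it *Csf3r* and *Mmp8*. Of 8 monocyte markers 4 were higher, with sums of 153 to 234 CPM against 199 to 245 CPM, among them *Plac8* (0.334 ± 0.132 to 3.42 ± 0.581 CPM) and *Ly6c2* (2.91 ± 0.716 to 5.13 ± 0.62 CPM). Of the 4 monocyte markers not called, *Vcan* was at 39.2 ± 10.3 against 22.3 ± 4.22 CPM (log2 fold change −0.81, FDR = 0.0883, edgeR), with every *Scd2*-m/-m library below the wild-type libraries, and *Cx3cr1* at 72.4 ± 37.3 against 53.1 ± 7.22 CPM (log2 fold change −0.45, FDR = 0.55). Of 7 progenitor markers, of which *Mpo* is one, 6 were tested and 2 were higher, *Mpo* and *Flt3*. *Flt3*, with 8, 2 and 10 wild-type counts, passed the filter only through *Scd2*-m/-m libraries. The list summed to 3.89 to 5.18 CPM against 5.25 to 5.75 CPM. This sum includes *Mpo* itself (0.544 against 1.05 CPM on average). It thus repeats in part the rise of a granule gene and is no separate measure of progenitors. The progenitor genes *Kit* and *Cd34* were not called. All 10 cell division genes rose (among them *Ccna2* by 3.13 and *Ube2c* by 3.65 on the log2 scale), with sums of 42.7 to 50.5 CPM against 142 to 153 CPM. The part of these cells and of cell division in the rise of the granule genes was not tested.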

How the data were processed

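RNA sequencing of 3 wild-type and 3 *Scd2*-m/-m BMDM samples was analysed. The authors placed the poly(A)-selected reads on GRCm38 (Ensembl) with STAR and deposited raw counts per gene. For the counter, its use of strand and read filters, details were not given in the sources used here. A second table, of the authors' own comparison (log2 fold changes, p-values and log2 CPM, made with edgeR and limma), was not used. Of 40757 entries, 276 that repeat a gene were removed. Counts were compared with edgeR 4.0.16 (filterByExpr, TMM factors of 0.979 to 1.02, robust glmQLFit, glmQLFTest, genotype only) in R 4.3.3, with Benjamini-Hochberg adjustment over 14778 genes. The standard error is the size of the log2 fold change over the square root of F. CPM uses TMM-scaled library sizes, and lengths are the exonic bases of GENCODE. Counts of 1 to 20 were even in 60.9% to 64.9% of cases per library, and the sources do not say whether 1 count is a read or a pair. Every library total was above the average number of reads per sample that the paper reports. A count may thus be less than 1 independent fragment, and low counts may rest on fewer molecules than printed. Floors cover counting error only, with each count taken as independent. Replicates differed by more than sampling noise (chi-square per gene 10.4 to 31.4).

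The genes and lists were chosen with earlier results of these data known, so class sums, medians and list counts carry no test. The text names the 10 granule genes, *Scd2*, every called gene of the stage and role lists (at most 6 each) except 1 that is not reported here, *Cebpe*, *Gfi1*, *Csf3r*, *Ly6g*, *Mmp8*, *Epx* and *Prss57*, up to 2 called markers of each other cell type, and the 5 genes closest to each class profile. *Ms4a3*, *Fcnb*, *Cxcr2*, *Retnlg*, *Pglyrp1*, *Serpinb1a*, *Stfa1*, *Stfa2*, *Stfa2l1*, *Stfa3*, *G0s2*, *Il1r2*, *Prss34*, *Kit*, *Cd34*, *Vcan*, *Cx3cr1*, *Ighm* and the genes that overlap or neighbour *Prtn3*, *Elane* and *Mpo* were chosen after their values were seen. Alternatives were RLE and upper-quartile factors, other filters, DESeq2 1.42.0, limma-voom (limma 3.58.1) with and without quality weights, the replicate number as a block, an FDR of 0.01, leaving out each library and, added after seeing the data, halved counts.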

Additional observations from a re-analysis of the deposited data

How the results depend on the processing

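The number of granule genes called was 7 and stayed between 6 and 8 under all 15 alternatives, with 0 lower in each, and their log2 fold changes kept their sign in every alternative that tested them. Halved counts gave 7 of 7 tested, *Elane* and *Camp* falling below the filter. With a library left out the number was 6 to 7, *Mpo* being the gene whose call was lost. *Camp* was called in none of its alternatives (0.54 to 1.27), and *Elane*, at 0.86 to 1.48, was called in 2 of its 14 alternatives, with every gene tested (1.25, FDR = 0.0488) and with 10 counts required in every library (1.26, FDR = 0.0309, edgeR), which leaves fewer genes tested. The count over all genes, 2585, was 4507 with limma-voom and quality weights, 1331 at an FDR below 0.01, and 1440 to 2567 with a library left out, the lowest values being 1490 without wild-type replicate 2 and 1440 without *Scd2*-m/-m replicate 2; the cause was not tested. The 23 calls in the other lists ranged from 16 to 28, those in the gelatinase granule and late neutrophil list from 2 (also at an FDR below 0.01) to 6. For *Scd2* the log2 fold change was called with limma-voom (−0.62, FDR = 0.0105), with quality weights (−0.82, FDR = 9.74e-05) and without *Scd2*-m/-m replicate 1. The log2 ratio of primary to later sums moved from 0.04 to 0.82 without *Mpo* and *Ngp*, and ranged from −0.16 to 0.22 with a library left out. Same-numbered libraries had deviations correlated at 0.104, −0.054 and 0.083, so the numbers were not taken as pairs; with the replicate block 2975 genes and 7 granule genes were called, and no granule gene changed its call. Depth limits the genes near 0 most: *Ctsg* rests on 2 to 11 counts per library.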

Other observations

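The called markers of other marrow cells are given here as values, beside 9.65% of all genes tested that rose and 7.84% that fell. In the list of dendritic cell markers 2 of 6 tested genes were higher, *Ccr7*, a chemokine receptor of migrating dendritic cells, from 0.0486 ± 0.0443 to 0.682 ± 0.271 CPM (SD, n = 3 each; log2 fold change 3.78, FDR = 0.000936, edgeR), and *Flt3*, a growth factor receptor of progenitors and dendritic cells, from 0.134 ± 0.0802 to 0.498 ± 0.0195 CPM (log2 fold change 1.86, FDR = 0.0147). Both passed the filter only through *Scd2*-m/-m libraries, with 0, 4 and 3 (*Ccr7*) and 8, 2 and 10 (*Flt3*) wild-type counts. This list count thus includes genes admitted through the genotype where they are high. In the B cell list *Cd79b* and *Cd79a*, which encode parts of the B cell receptor complex, rose by 1.01 (FDR = 0.0026) and 1.34 (FDR = 0.0228) on the log2 scale, 2 of 4 tested, and the list summed to 54.2 to 120 CPM in wild-type and 83.7 to 116 CPM in *Scd2*-m/-m libraries, most of it *Ighm*, an immunoglobulin heavy chain gene (86.5 ± 32.5 against 88.4 ± 18.4 CPM, FDR = 0.97, edgeR). In the eosinophil list *Ear2*, a ribonuclease gene with close paralogs, rose from 0.427 ± 0.157 to 1.6 ± 0.664 CPM, 1 of 3 tested, while the eosinophil genes *Il5ra* and *Ear6* had 0 counts. The megakaryocyte list had 1 of 3 tested genes lower, *Pf4*, from 54.2 ± 4.81 to 40.7 ± 1.41 CPM. By edgeR and DESeq2 0 genes were called in the lists of mast cell and basophil (2 tested), erythroid (2 tested) and stromal markers (4 tested, 1 of them at an unadjusted p under 0.05), and none of the T and NK cell markers passed the filter.

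The profile of the granule genes over the 6 libraries was shared by many other genes. The highest Pearson correlations of log2 CPM with the mean profile of the 3 tested primary granule genes were those of *Inpp5k* (0.9961), *Ganc* (0.9947), *Gpr155* (0.9919), *Il18bp* (0.9917) and *BC064078* (0.9914). For the 4 later granule genes they were *Nxpe4* (0.9997), *Tiam1* (0.9994), *Brip1* (0.9986), *Lamp2* (0.9984) and *Fam83f* (0.9973). A correlation above 0.95 was reached by 202 and 403 genes, and since 6 libraries in 2 genotypes share 1 contrast, these values mostly describe genes that separate the genotypes. Within the genotypes, *Scd2*-m/-m replicate 3 had the highest *Scd2*-m/-m level in 7 of the 10 granule genes and wild-type replicate 3 the highest wild-type level in 6.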
